A study of Rattus norvegicus with 21 samples.

Results

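The 7 genes described here handle glucose in the liver: Gckr, Pklr, Slc2a2, Pck1, Fbp1, Tat and Ppargc1a. They were taken by name, as the probe sets of the array whose annotation gives exactly 1 gene symbol equal to that of a member, which found 10 of 31099 probe sets. Where a gene has several, the one with the highest mean (21 arrays) stands for it, so that 7 of 14218 measured genes are described. Pklr has 2 probe sets, Ppargc1a has 3 and each other gene has 1.

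The livers came from male Harlan Sprague Dawley rats, an outbred stock, in a short study that looked for gene expression responses to 2-ethylhexyl diphenyl phosphate over a range of doses. This compound (EHDP below, spelled EDHP in some labels) belongs to the organophosphate esters and serves as a plasticiser and flame retardant. All rats received corn oil by gavage on 4 days, alone (vehicle, 6 arrays) or with EHDP at 61.2, 122.5, 244.6, 489.2 or 978.5 mg/kg (3 arrays each), and RNA came from whole pieces of the left lobe. The protocol counts 5 vehicle rats where 6 arrays carry dose 0, no age and no hour of tissue collection is given in the sources used here, and all 6 arrays were used.

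The clearest difference among these genes was a lower level of Gckr. At 489.2 mg/kg its signal fell by 0.45 on the log2 scale (SE 0.11), a 1.37-fold lower level than in the vehicle group, and it fell by 0.08 (SE 0.02) for each step up in dose rank. A gene is called here when its limma p-value, adjusted over all 14218 genes by the Benjamini-Hochberg method, is under 0.05. Gckr was the only member called, at 489.2 mg/kg and in the trend, so that 1 of 35 pairs of a member and a dose was called. Pklr (lower), Tat (higher) and Pck1 (lower) had larger mean differences at 489.2 mg/kg than Gckr, but their arrays spread more widely and none was called.

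The counts of called members stand against the share of all genes called in the same comparison. No member was called at 61.2 mg/kg, where 0.0141% of all genes were, at 122.5 mg/kg, where 0.113% were, or at 244.6 mg/kg, where 2.95% were. Of the 7 members 1 was called at 489.2 mg/kg and 2.9% of all genes were, 1.51% higher and 1.39% lower. No member was called at 978.5 mg/kg, while 10.2% of all genes were, 6.18% higher and 4.07% lower. In the trend over dose rank, 1 of 7 members was called and 11.2% of all genes were, 6.06% higher and 5.12% lower. Between 978.5 and 489.2 mg/kg no member was called, and 0.106% of all genes were. Without adjustment, limma gave p under 0.05 to 5 of 7 members at 489.2 mg/kg, where 14.5% of all genes had such a p, and to 2 of 7 at the highest dose, where 24.7% had. It gave such a p to 1 member at 122.5 mg/kg (6.06% of all genes), and to none at the other doses. With 3 arrays a dose the precision is limited, and a member that was not called is not shown to be unchanged.

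**Figure D1:**
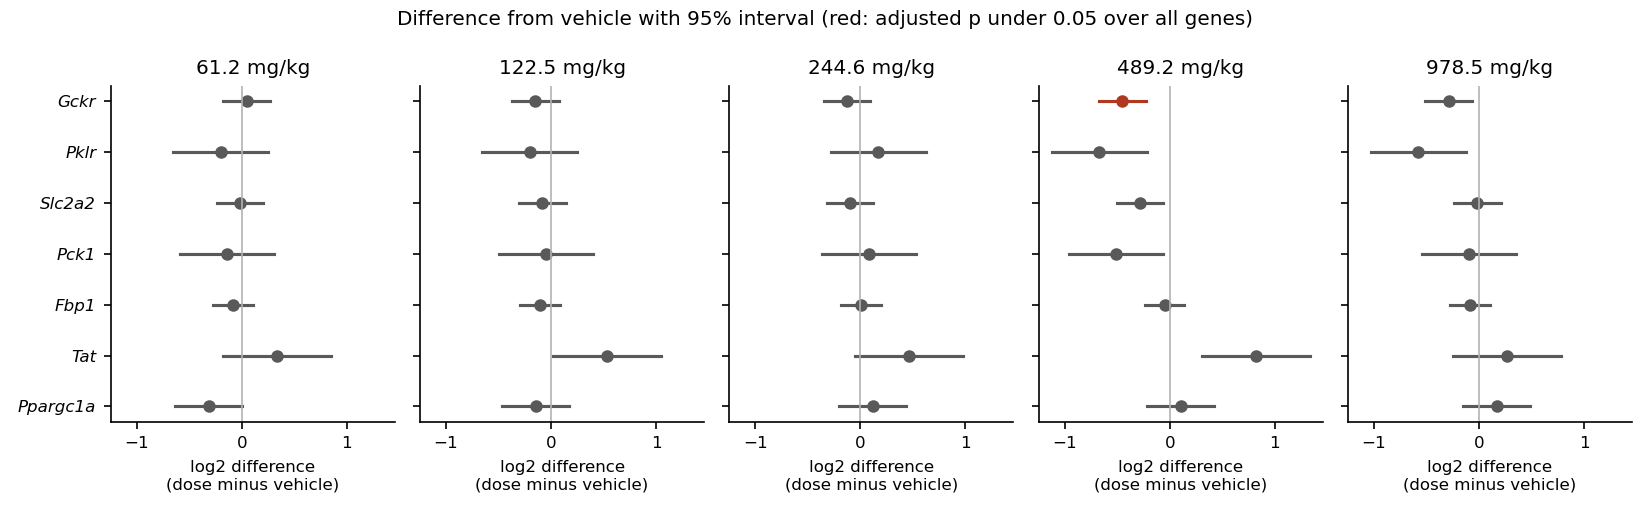
Difference from vehicle on the log2 scale (x axes, points) with its 95% interval (lines) for the 7 genes (rows), with 1 panel per dose. The single red point is Gckr at 489.2 mg/kg, and Tat lies to the right of zero at all 5 doses although none of its 5 differences was called. All 5 are taken from the same vehicle arrays.

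The liver takes up and stores glucose after a meal and makes it during a fast. Uptake runs through the transporter GLUT2, encoded by Slc2a2, and Gckr encodes a regulatory protein of hepatocytes that acts early in the use of glucose. Pyruvate kinase, encoded by Pklr, is the last step of glycolysis. The reverse route, gluconeogenesis, bypasses that step through phosphoenolpyruvate carboxykinase (Pck1) and later uses fructose bisphosphatase (Fbp1). It draws carbon from amino acids, which tyrosine aminotransferase (Tat) helps to release. The coactivator PGC-1alpha, encoded by Ppargc1a, is raised in fasting by glucagon through cyclic AMP and the factor CREB, and drives gluconeogenic genes such as Pck1.

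Promoter sequences show where the cyclic AMP response element known from such genes occurs among the members. The 250 bases before 1 annotated start per gene were read from RefSeq promoters of the rat build GRCr8, in which all 7 genes were matched. They were searched on both strands for exact letters. For Pklr, Fbp1, Ppargc1a and Slc2a2 this start lies inside the gene's annotated span, and the bases before that span were not searched. The full element TGACGTCA was found in 1 of 7 members, Ppargc1a, and in 1.59% of 33469 windows of the same length. Its core TGACG, which the full element contains, was found in 3 of 7 members, Gckr, Pck1 and Ppargc1a, and in 18.2% of windows. These 3 windows are shown 5′ to 3′ on the strand of the gene, Gckr at chr6:30795628-30795877 (minus strand), Pck1 at chr3:182348322-182348571 (plus strand) and Ppargc1a at chr14:63634058-63634307 (plus strand), with the matched letters in capitals.
Gckr: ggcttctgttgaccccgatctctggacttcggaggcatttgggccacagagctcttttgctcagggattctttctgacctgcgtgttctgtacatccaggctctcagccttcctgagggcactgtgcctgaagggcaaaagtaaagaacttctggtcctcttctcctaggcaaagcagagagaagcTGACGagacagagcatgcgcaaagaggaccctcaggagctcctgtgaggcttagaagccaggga
Pck1: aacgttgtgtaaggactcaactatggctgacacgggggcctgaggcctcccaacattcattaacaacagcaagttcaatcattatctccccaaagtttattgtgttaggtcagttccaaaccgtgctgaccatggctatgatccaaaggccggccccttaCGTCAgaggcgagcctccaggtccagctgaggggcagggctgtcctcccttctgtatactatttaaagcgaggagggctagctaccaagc
Ppargc1a: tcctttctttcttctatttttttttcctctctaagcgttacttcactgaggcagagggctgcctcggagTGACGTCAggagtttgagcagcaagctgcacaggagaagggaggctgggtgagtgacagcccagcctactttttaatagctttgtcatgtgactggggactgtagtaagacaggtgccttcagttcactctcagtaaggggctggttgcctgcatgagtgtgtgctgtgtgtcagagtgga
The match begins 64 bases before the start of Gckr, 90 bases before that of Pck1 (core on the minus strand) and 181 bases before that of Ppargc1a. The TATA box letters TATAAA were found in 1 member, Pklr, 29 bases before its start, and in 12.9% of windows. The clock output motif known as the D-box (TTATGTAA or TTACGTAA, in 0.932% of windows), the E-box CACGTG (5.59%) and the forkhead letters GTAAACA (3.21%) were found in none of the 7 windows. A match is only a run of letters and is no sign of binding, and no binding was measured here.

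All 21 arrays were alike in overall level, with medians of 6.33 to 6.41 on the log2 scale, and the table's signals ran from 2.77 to 15.36. Each array correlated with the others at a mean r of 0.988 to 0.994 over probe sets, lowest in vehicle replicate 6. Of 10 hepatocyte markers 9 were measured, with mean signals from 12.62 to 15.34. In whole liver pieces, fewer cells of a type and less RNA per cell cannot be told apart. A log2 signal is relative to its own probes, so levels are compared only within a probe set.

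Gckr, the regulatory protein of early glucose use, had vehicle signals from 11.64 to 12.07 (log2 signal, median 11.91, n = 6). Its signals were 12.18, 11.87 and 11.78 at 61.2 mg/kg, 11.87, 11.73 and 11.64 at 122.5 mg/kg, and 11.73, 11.75 and 11.83 at 244.6 mg/kg. All 9 of these arrays except the first at 61.2 mg/kg lay within the vehicle range. The signals were 11.35, 11.72 and 11.28 at 489.2 mg/kg, and 11.57, 11.62 and 11.63 at 978.5 mg/kg. Below all vehicle arrays lay 2 of 3 arrays at 489.2 mg/kg and 3 of 3 at 978.5 mg/kg, the last with the tightest spread of any group (SD 0.03), its highest array at 11.63 just under the lowest vehicle array at 11.64.

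The fall of Gckr at 489.2 mg/kg was -0.45 on the log2 scale, with a 95% interval from -0.67 to -0.23 (limma adjusted p = 0.0230, n = 3 against 6). The difference was -0.29 at 978.5 mg/kg (interval -0.51 to -0.07, adjusted p = 0.0898) and -0.13 at 244.6 mg/kg (adjusted p = 0.668). The trend over dose rank, from 0 for vehicle to 5 for the highest dose, had a slope of -0.08 per step (interval -0.12 to -0.04, adjusted p = 0.00842). The group means did not run down in strict order: 61.2 mg/kg was highest at 11.94, and 978.5 mg/kg (11.61) lay above 489.2 mg/kg (11.45), a difference of 0.16 that was not called (adjusted p = 0.581). Of neighbours in the order of means, only 122.5 and 978.5 mg/kg had ranges that did not overlap. The call at 489.2 mg/kg was lost without replicate 1 of that dose (-0.40, adjusted p = 0.182), without replicate 3 (-0.36, adjusted p = 0.137) and in a fit of only the arrays compared (adjusted p = 0.117). In the treated arrays alone the slope was -0.10 and was not called (adjusted p = 0.0842), and an F test over the 6 groups gave Gckr an adjusted p of 0.0572.

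**Figure D2:**
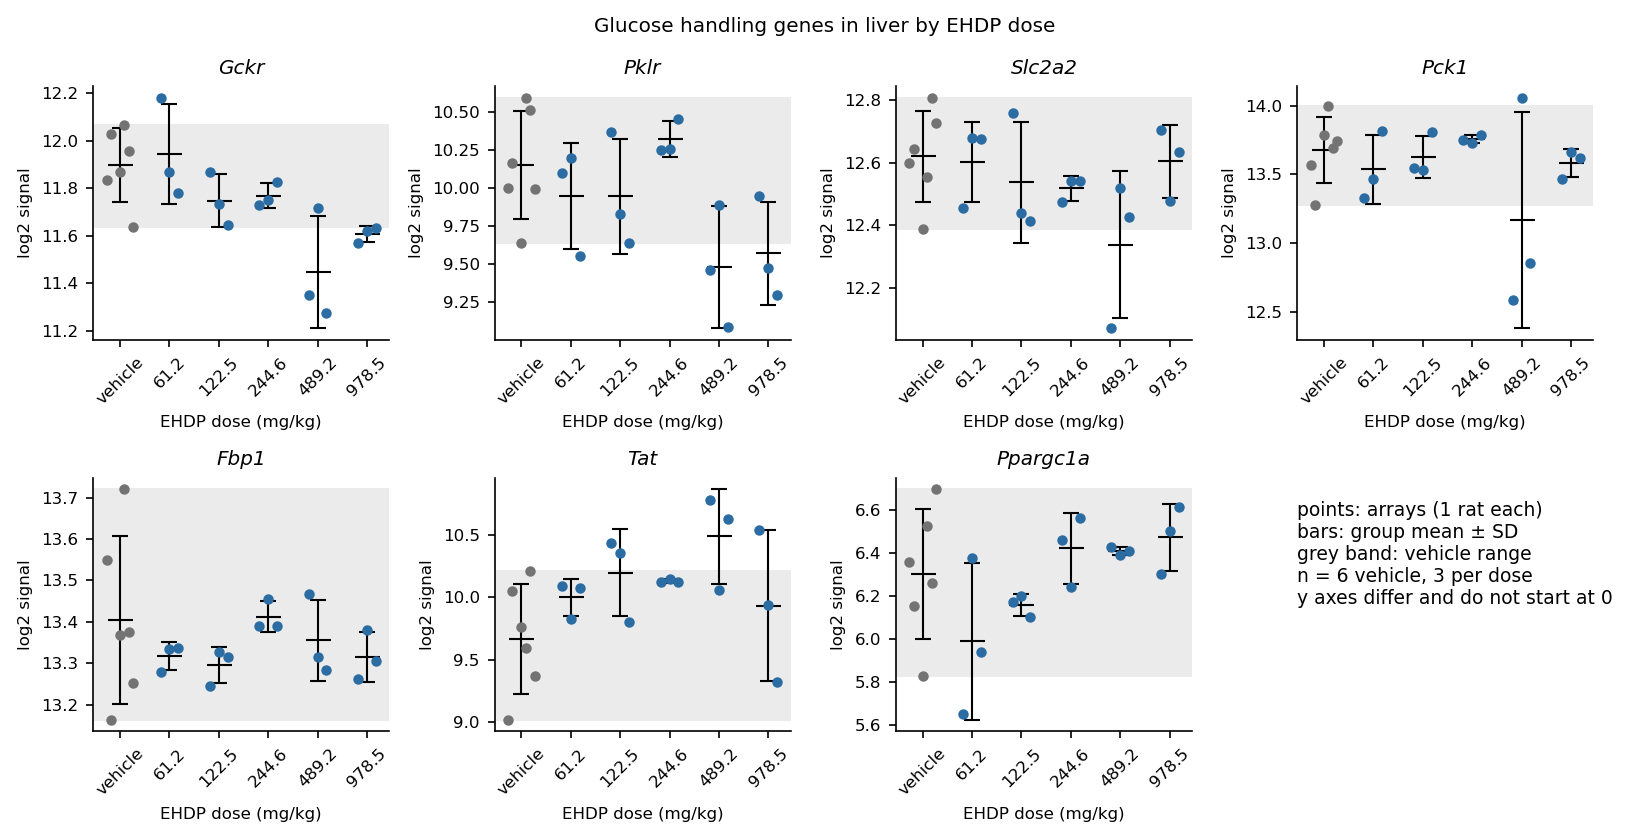
Log2 signal of each of the 7 genes (y axes, each with its own range) in every array by EHDP dose in mg/kg (x axes), with group mean and SD as bars and the vehicle range as a grey band. Gckr and Pklr sit low at 489.2 and 978.5 mg/kg, Pck1 splits widely at 489.2 mg/kg (12.59, 12.86 and 14.06), and Fbp1 stays within the vehicle band at every dose.

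Pklr, the pyruvate kinase of liver and red blood cells, had means below vehicle at the highest doses, as Gckr had, but spread more and was not called. Vehicle signals ran from 9.64 to 10.59 (median 10.08, n = 6). They were 10.10, 10.19 and 9.55 at 61.2 mg/kg, 10.37, 9.83 and 9.64 at 122.5 mg/kg, and 10.25, 10.25 and 10.45 at 244.6 mg/kg. They were 9.46, 9.88 and 9.08 at 489.2 mg/kg and 9.95, 9.47 and 9.29 at 978.5 mg/kg. At both of these doses 2 of 3 arrays lay below all vehicle arrays and the third lay within their range, and 1 array at 61.2 mg/kg and, barely, 1 at 122.5 mg/kg also lay below. The difference was -0.67 at 489.2 mg/kg (interval -1.12 to -0.22, adjusted p = 0.115) and -0.58 at 978.5 mg/kg (interval -1.03 to -0.13, adjusted p = 0.0983). The slope over dose rank was -0.11 per step (adjusted p = 0.0957), and at 122.5 mg/kg the difference was -0.20 (adjusted p = 0.939).

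The other Pklr probe set gave nearly the same values, -0.66 at 489.2 mg/kg (adjusted p = 0.119 over all probe sets tested), -0.50 at 978.5 mg/kg (0.160) and -0.12 per step in the trend (0.0695). Because red blood cells also hold this enzyme, their markers are given beside it. Of 5 red blood cell markers measured of 8 listed, none was called at 489.2 mg/kg and 3 were called lower at 978.5 mg/kg (4.07% of all genes were). These 3 were the globins Hbb (-1.36) and Hba-a3 (-1.45) and the haem synthesis enzyme Alas2 (-1.48). Each call ended without replicate 3 of that dose (Hbb -1.16, adjusted p = 0.105; Hba-a3 -1.25, 0.0571; Alas2 -1.17, 0.0849), and that of Hbb also without replicate 1 (-1.35, 0.0538). The mean of the 5 markers relative to the vehicle mean ran from -1.25 to -0.63 at 978.5 mg/kg and from -1.01 to -0.45 at 489.2 mg/kg, against -0.56 to 0.36 in vehicle. Their part in the Pklr values was not tested.

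Slc2a2, which encodes the glucose transporter GLUT2, had vehicle signals from 12.39 to 12.81 (median 12.62, n = 6). Its signals were 12.46, 12.68 and 12.68 at 61.2 mg/kg, 12.76, 12.44 and 12.41 at 122.5 mg/kg, and 12.47, 12.54 and 12.54 at 244.6 mg/kg. They were 12.07, 12.52 and 12.43 at 489.2 mg/kg and 12.71, 12.48 and 12.63 at 978.5 mg/kg. Only 1 array of all 15 treated ones, replicate 1 at 489.2 mg/kg, lay outside the vehicle range. The difference was -0.28 at 489.2 mg/kg (interval -0.50 to -0.06, adjusted p = 0.189; -0.15 without replicate 1, adjusted p = 0.796) and -0.02 at 978.5 mg/kg (interval -0.24 to 0.21, adjusted p = 0.952). The highest doses differed from each other by 0.27, which was not called (adjusted p = 0.348), and the slope over dose rank was -0.03 (adjusted p = 0.413).

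Pck1, the cytosolic phosphoenolpyruvate carboxykinase that commits carbon to gluconeogenesis, split at 489.2 mg/kg and nowhere else. Vehicle signals ran from 13.28 to 13.995 (median 13.72, n = 6). They were 13.33, 13.46 and 13.82 at 61.2 mg/kg, 13.54, 13.53 and 13.81 at 122.5 mg/kg, and 13.75, 13.73 and 13.79 at 244.6 mg/kg. They were 12.59, 14.06 and 12.86 at 489.2 mg/kg, and 13.46, 13.66 and 13.62 at 978.5 mg/kg. Replicates 1 and 3 at 489.2 mg/kg lay below every other array of the study, and replicate 2 lay above every other. The SD at that dose was 0.78, against 0.03 to 0.25 in the other groups. Its difference at 489.2 mg/kg was -0.51 (interval -0.96 to -0.06, adjusted p = 0.262). Without replicate 1 of that dose it was -0.22 (adjusted p = 0.887), and without replicate 2 it was -0.95 (adjusted p = 0.00119). The difference at 978.5 mg/kg was -0.09 (interval -0.54 to 0.36, adjusted p = 0.832). The slope over dose rank was -0.04 (adjusted p = 0.554). The difference between the highest doses, 0.42, was not called (adjusted p = 0.482).

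Fbp1, the fructose bisphosphatase further along gluconeogenesis, varied little. Vehicle signals ran from 13.16 to 13.72 (median 13.37, n = 6). They were 13.28, 13.34 and 13.34 at 61.2 mg/kg, 13.25, 13.33 and 13.31 at 122.5 mg/kg, and 13.39, 13.46 and 13.39 at 244.6 mg/kg. They were 13.47, 13.31 and 13.28 at 489.2 mg/kg and 13.26, 13.38 and 13.31 at 978.5 mg/kg. Every treated array lay within the vehicle range. The difference was -0.05 at 489.2 mg/kg (interval -0.24 to 0.14, adjusted p = 0.877), -0.09 at 978.5 mg/kg (interval -0.28 to 0.10, adjusted p = 0.589) and -0.01 per step in the trend (adjusted p = 0.757). The intervals leave out a change of Fbp1 as large as the fall of Gckr at 489.2 mg/kg.

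Tat, tyrosine aminotransferase, a gene classically induced by glucocorticoids, had a mean above vehicle at all 5 doses and was called at none. Vehicle signals were spread from 9.02 to 10.21 (median 9.68, n = 6). Signals were 10.09, 9.83 and 10.08 at 61.2 mg/kg, 10.44, 10.36 and 9.80 at 122.5 mg/kg, and 10.12, 10.15 and 10.12 at 244.6 mg/kg. They were 10.78, 10.06 and 10.63 at 489.2 mg/kg and 10.54, 9.94 and 9.33 at 978.5 mg/kg. Above all vehicle arrays lay 2 of 3 arrays at both 122.5 and 489.2 mg/kg, while the arrays at 978.5 mg/kg were spread more than those of any other group (SD 0.61). The difference was 0.33 at 61.2 mg/kg (adjusted p = 0.948), 0.53 at 122.5 mg/kg (adjusted p = 0.810) and 0.46 at 244.6 mg/kg (adjusted p = 0.422). Of neighbours in the order of means, only 244.6 and 61.2 mg/kg had ranges that did not overlap. It was 0.82 at 489.2 mg/kg, a 1.77-fold higher level (interval 0.31 to 1.33, adjusted p = 0.0819), and 0.26 at 978.5 mg/kg (interval -0.25 to 0.78, adjusted p = 0.545). All 5 doses share the same 6 vehicle arrays, of which replicates 1 to 3 had 10.05, 9.76 and 10.21 and replicates 4 to 6 had 9.02, 9.60 and 9.37. The slope over dose rank was 0.10 (adjusted p = 0.185), and the step from 489.2 to 978.5 mg/kg was -0.56 (adjusted p = 0.396). The call changed with single arrays: without vehicle replicate 3 it was 0.93 at 489.2 mg/kg (adjusted p = 0.0434), and without replicate 3 at 978.5 mg/kg the slope was 0.15 (adjusted p = 0.0230). Vehicle replicates 4 to 6 have no same-numbered treated array. With the replicate number as a block, the Tat difference was -0.0080 at 61.2 mg/kg and -0.075 at 978.5 mg/kg. It was smaller but above zero at the other doses (0.48 at 489.2 mg/kg).

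Ppargc1a, which encodes the fasting coactivator PGC-1alpha, had vehicle signals from 5.83 to 6.70 (median 6.31, n = 6). Its signals were 5.65, 6.37 and 5.94 at 61.2 mg/kg, 6.17, 6.20 and 6.10 at 122.5 mg/kg, and 6.46, 6.24 and 6.56 at 244.6 mg/kg. They were 6.43, 6.39 and 6.41 at 489.2 mg/kg and 6.30, 6.50 and 6.61 at 978.5 mg/kg. Only 1 treated array, replicate 1 at 61.2 mg/kg, lay outside the vehicle range. The difference was -0.31 at 61.2 mg/kg (adjusted p = 0.923), 0.11 at 489.2 mg/kg (interval -0.21 to 0.42, adjusted p = 0.831) and 0.17 at 978.5 mg/kg (interval -0.15 to 0.49, adjusted p = 0.535). The slope over dose rank was 0.05 (adjusted p = 0.280). In the treated arrays alone it was 0.12 and was called (adjusted p = 0.0444), and with the replicate number as a block it was 0.10 and was called (adjusted p = 0.0166). The 2 other probe sets had means of 5.32 and 3.43 and were called in no comparison.

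At 489.2 mg/kg 4 of the 7 members split by rat. In replicates 1 and 3 Gckr, Pklr and Pck1 lay below all vehicle arrays and Tat above all of them. In replicate 2 Gckr, Pklr and Tat lay within the vehicle range and Pck1 just above it. Fbp1 and Ppargc1a lay within the vehicle range in all 3 rats, and Slc2a2 left it only in replicate 1. The 7 members had a median difference of -0.28 at this dose, with 5 lower and 2 higher in mean, against a median of 0.01 over all genes. Without replicate 2 (n = 2 against 6), 4 of 7 members were called and 3.62% of all genes were. In that fit Pck1 differed by -0.95 (adjusted p = 0.00119), Gckr by -0.59 (0.00494), Tat by 1.03 (0.0414) and Pklr by -0.88 (0.0476), while Slc2a2 was at -0.37 (0.0992). Replicate 2 is singled out here because of its values, so these calls rest on a chosen pair of rats and are no separate evidence of a dose effect.

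Other values of these 3 rats are given beside the split. The mean of 9 hepatocyte markers relative to vehicle was -0.03, -0.02 and -0.03 in replicates 1, 2 and 3, so these markers did not separate them. The mean of 9 macrophage markers, of 12 listed, was -1.26, 0.05 and 0.05, against -0.30 to 0.14 in vehicle, and none of the 9 was called. That of 11 stellate cell and fibroblast markers, of 12 listed, was -0.84, -0.13 and -0.24, against -0.23 to 0.24 in vehicle, and 1 was called, lower. That of 9 endothelial markers, of 11 listed, was -0.38, 0.05 and -0.08, against -0.33 to 0.28, with none called. Replicate 1 had the lowest endothelial mean in vehicle and at every other dose too (-0.47, -0.47, -0.51 and -0.41 in rising order of dose). It also had the lowest macrophage mean at 61.2, 244.6 and 978.5 mg/kg, but not at 122.5 mg/kg or in vehicle. The part of these cells in the split was not tested. The same markers were also low at 978.5 mg/kg, where macrophage means ran from -0.79 to -0.42, with 1 of 9 markers called lower, and stellate and fibroblast means from -0.76 to -0.17, with 3 of 11 called lower. In the trend 4 macrophage markers and 4 stellate or fibroblast markers were called lower, and 2 of 9 hepatocyte markers were. Of all genes 4.07% were called lower at 978.5 mg/kg and 5.12% in the trend. The part of these markers' cells in the Gckr and Pklr values was not tested. Pck1 at 978.5 mg/kg stayed within the vehicle range in all 3 rats, and the median difference of the members was -0.09, with 5 lower and 2 higher.

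**Figure D3:**
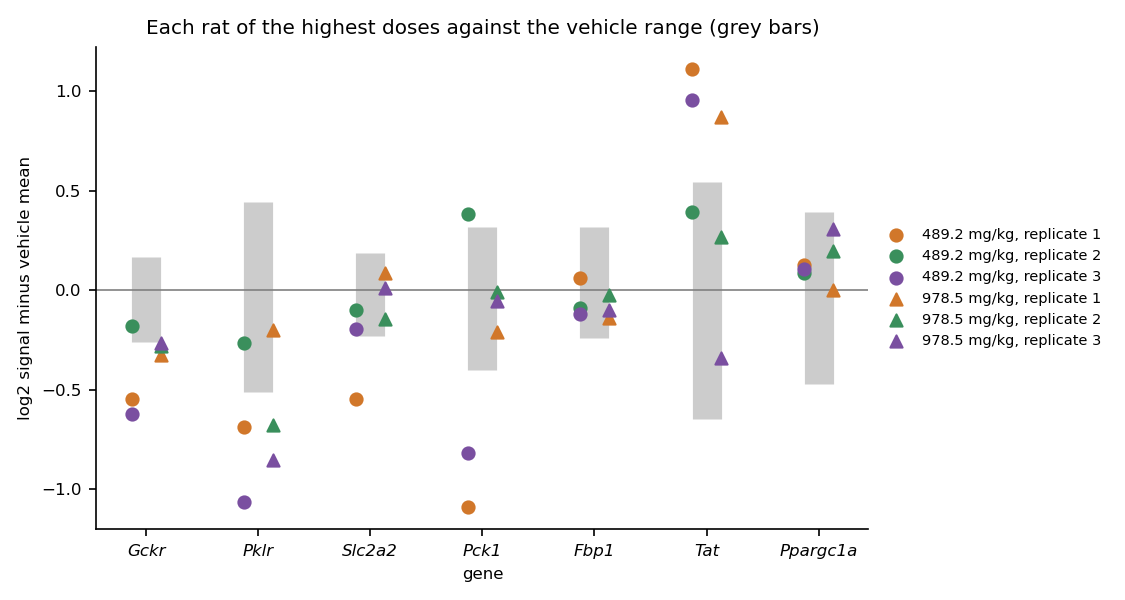
Log2 signal minus the vehicle mean (y axis) for each gene (x axis) in the 3 rats at 489.2 mg/kg (circles) and the 3 at 978.5 mg/kg (triangles), with the vehicle range as grey bars. Replicates 1 and 3 at 489.2 mg/kg lie below the bars for Gckr, Pklr and Pck1 and above the bar for Tat, while replicate 2 lies above the bar for Pck1.

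At the other doses no member was called, and their differences went both ways. Their median difference from vehicle was -0.09 for the 61.2 mg/kg group, with 2 of 7 members higher in mean. It was -0.11 for 122.5 mg/kg, with 1 of 7 higher, and 0.08 for 244.6 mg/kg, with 5 of 7 higher, against medians between -0.01 and 0.00 over all genes. Between the highest doses the median difference of the members was 0.09, and over all genes it was -0.02. The median slope over dose rank was -0.03 for the members, with 2 slopes above and 5 below zero, and 0.00 over all genes.

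Among themselves the members did not vary as 1 group over the 21 arrays. Gckr and Pklr correlated at Pearson r = 0.71, and at 0.64 after each group's mean was removed. Pck1 and Tat correlated at -0.52, and at -0.45 within groups, while Gckr and Pck1 correlated at 0.45 and 0.29. These arrays share their groups and processing, and the values describe them without a test.

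Other genes of glucose metabolism were taken from lists written with earlier results of these data known. Of 20 measured enzymes shared by glycolysis and gluconeogenesis, of 26 listed, 1 was called higher and 2 lower at 978.5 mg/kg. Of all genes 6.18% were called higher and 4.07% lower there. The list median was 0.03, against -0.02 over all genes. Mitochondrial Pck2, which makes phosphoenolpyruvate within mitochondria, rose by 0.44 (SE 0.13, adjusted p = 0.0308). Pyruvate carboxylase, listed as Pc, which starts gluconeogenesis from pyruvate, changed by -0.46 (SE 0.13, adjusted p = 0.0291), and lactate dehydrogenase Ldha by -0.28 (SE 0.08, adjusted p = 0.0299). None was higher at 489.2 mg/kg and 2 were lower, Pc (-0.53, adjusted p = 0.0311) and Ldha (-0.32, adjusted p = 0.0288). At 244.6 mg/kg only Pck2 was called (0.56, adjusted p = 0.0150). Of all genes 2.9% were called at 489.2 mg/kg and 2.95% at 244.6 mg/kg. Without replicate 3 of 489.2 mg/kg Pc was -0.28 (adjusted p = 0.198) and Ldha -0.24 (adjusted p = 0.184), and both were also lost there without replicate 1 and without vehicle replicate 5 (Pc also without 4, Ldha without 2 or 3). The Pck2 call at 244.6 mg/kg was lost without its replicate 1 (0.48, adjusted p = 0.158) or 3 (0.55, adjusted p = 0.0656). The 3 calls at 978.5 mg/kg ended without single arrays. Pc was lost without vehicle replicate 4 (-0.43) or 5 (-0.42) and without any 1 array of that dose (-0.43, -0.45 and -0.50, adjusted p up to 0.105). Pck2 was lost without vehicle replicate 1, 2 or 3 (0.43, 0.42 and 0.41) and without replicate 1 or 3 of that dose (0.34 and 0.48, adjusted p up to 0.170). Ldha was lost without vehicle replicate 2, 3 or 5 (-0.27, -0.26 and -0.26) and without replicate 2 or 3 of that dose (-0.24 and -0.25, adjusted p up to 0.137).

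Of 22 measured genes that bring fructose, pyruvate and amino acids into these routes, 3 were called higher and 3 lower at 978.5 mg/kg and 16 were not called, with a median of -0.05, in a comparison where 10.2% of all genes were called. Triokinase Tkfc, an enzyme of fructose breakdown, changed by -0.93 (SE 0.18, adjusted p = 0.00209), and the lactate and pyruvate transporter Slc16a1 by -0.61 (adjusted p = 0.00860). Serine dehydratase Sds, which turns serine into pyruvate, changed by -0.70 (adjusted p = 0.0132). Sorbitol dehydrogenase Sord rose by 0.41 (adjusted p = 0.00356), the pyruvate carrier subunit Mpc2 by 0.35 (adjusted p = 0.0121) and the pyruvate dehydrogenase subunit Pdha1 by 0.25 (adjusted p = 0.0306). Tkfc and Sord kept their calls in all alternatives run. Without replicate 1 of the dose Mpc2 was lost (0.31, adjusted p = 0.0741), without replicate 2 Slc16a1 (-0.48, 0.0627) and without replicate 3 Sds (-0.67, 0.0710). Pdha1 was lost without vehicle replicate 2 (0.21, adjusted p = 0.0595) and without any 1 array of the dose (0.24 to 0.26, adjusted p up to 0.118). The list held 3 lower genes at 489.2 mg/kg, Tkfc (-0.80), glycerol kinase Gk (-0.66) and Slc16a1 (-0.62), and no higher one. Of all genes 1.51% were called higher and 1.39% lower at 489.2 mg/kg. Without replicate 3 of that dose none of the 3 was called (Tkfc -0.65, adjusted p = 0.103; Gk -0.42, 0.182; Slc16a1 -0.55, 0.0988). Tkfc (-0.76) and Gk (-0.64) were also lost without replicate 1, Slc16a1 (-0.57) without replicate 2 and Gk (-0.59) without vehicle replicate 4, and as the mean of its probe sets Slc16a1 was -0.22 (adjusted p = 0.219). In the trend 2 were higher and 5 lower, where 6.06% of all genes were called higher and 5.12% lower. Among the lower ones were the pyruvate dehydrogenase kinase Pdk4 (-0.22 per step) and the aspartate aminotransferase Got1 (-0.12 per step). Both calls were lost with dose in mg/kg in place of dose rank and in the treated arrays alone. Pdk4 was also lost with the replicate number as a block. Got1 was also lost without vehicle replicate 6 (-0.10) or replicate 2 of 978.5 mg/kg (-0.11).

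Of 12 measured glycogen genes, of 15 listed, 3 were called higher and none lower at 978.5 mg/kg, with a median of 0.13. Of all genes 6.18% were called higher and 4.07% lower there. The glycogen-binding protein Stbd1 rose by 0.71 (SE 0.14, adjusted p = 0.00295), the phosphorylase kinase subunit Phkb by 0.41 (adjusted p = 0.00695) and lysosomal alpha-glucosidase Gaa by 0.37 (adjusted p = 0.0351). Stbd1 was also higher at 489.2 mg/kg (0.76, adjusted p = 0.00445), where the branching enzyme Gbe1 was lower (-0.39, adjusted p = 0.0116). Without replicate 3 of 978.5 mg/kg Phkb was not called (0.30, adjusted p = 0.0841), and Gaa was lost without vehicle replicate 1, 3 or 5 (0.34, 0.37 and 0.35) and without replicate 1 or 2 of that dose (0.25 and 0.31, adjusted p up to 0.226). Stbd1 kept its call in all alternatives run at both doses. The trend called 3 higher and 1 lower, glycogen phosphorylase Pygl (-0.05 per step), whose call was lost without any 1 of 11 arrays (-0.05 to -0.04). Of all genes the trend called 6.06% higher and 5.12% lower. Gbe1 at 489.2 mg/kg was lost without replicate 1 of that dose (-0.32, adjusted p = 0.136).

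Of 31 measured genes of insulin and glucagon signalling and their regulators, 1 was called higher and 3 lower at 978.5 mg/kg (10.2% of all genes called). The list median was -0.02, equal to that of all genes. The nuclear receptor SHP, encoded by Nr0b2, a repressor of bile acid synthesis and other liver genes, rose by 1.44 (SE 0.32, adjusted p = 0.00674). Glycine N-methyltransferase Gnmt changed by -1.20 (SE 0.14, adjusted p = 1.8e-05), the cyclic AMP responsive modulator Crem by -0.65 (adjusted p = 0.00220) and the glucose-responsive gene Txnip by -0.56 (adjusted p = 0.0220). Gnmt was already lower at 244.6 mg/kg (-0.93, adjusted p = 0.000788), where the CREB coactivator Crtc2 was also called (-0.34, adjusted p = 0.0417). Without replicate 2 of 978.5 mg/kg Nr0b2 was not called (1.10, adjusted p = 0.0550), and Txnip was lost without replicate 1 (-0.47, 0.119) or 3 (-0.58, 0.0742). Crem (-0.75) and Gnmt (-0.57) were lower at 489.2 mg/kg and the pseudokinase Trib3 was higher (0.92). There Trib3 was lost without replicate 1 (0.76, adjusted p = 0.224) or vehicle replicate 4 (0.84), and Gnmt without replicate 2 (-0.47, adjusted p = 0.124) or 3 (-0.56) or vehicle replicate 2, 4 or 5 (-0.57 to -0.55). The call of Crtc2 was lost without any 1 of 8 arrays (-0.37 to -0.29). In the trend 2 were higher and 4 lower, where 6.06% of all genes were called higher and 5.12% lower. Among the lower ones was Onecut1, a liver transcription factor (-0.40 per step). Its call was lost without vehicle replicate 3 (-0.37) or replicate 1 (-0.39) or 3 (-0.38) of 978.5 mg/kg. The trend of Trib3 (0.14) was lost without any 1 of 6 arrays (0.12 to 0.14). The glucagon receptor Gcgr (0.11), the insulin-regulated factor Foxo1 (-0.07) and Cebpb (0.11) were not called at 978.5 mg/kg (adjusted p = 0.417, 0.653 and 0.823).

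Tat and Pck1 are known targets of glucocorticoids, and genes listed for the glucocorticoid response are given beside them. Of 16 measured, 1 was called higher and 2 lower at 978.5 mg/kg, where 10.2% of all genes were called. The list median was 0.00. The lipase inhibitor Angptl4 changed by -1.56 (SE 0.20, adjusted p = 4.5e-05) and the cell cycle inhibitor Cdkn1a by -2.18 (SE 0.24, adjusted p = 9.9e-06), while the stress gene Gadd45b rose by 1.75 (SE 0.19, adjusted p = 7.5e-06). Angptl4 (-1.98) and Cdkn1a (-1.87) were the 2 called at 489.2 mg/kg, where 2.9% of all genes were. Angptl4 was also called at 244.6 mg/kg (-0.80, adjusted p = 0.0299), where 2.95% of all genes were. That call was lost without vehicle replicate 1 (-0.69) or 6 (-0.73) or replicate 1 (-0.72) or 3 (-0.75) of that dose. Gadd45b also differed between the highest doses (1.18, adjusted p = 0.0442), a call lost in 7 of 15 alternatives run, while the 3 calls at 978.5 mg/kg were kept in all. In the trend 2 were higher and 4 lower, where 6.06% of all genes were called higher and 5.12% lower. The kinase Sgk1 was at -0.28 and metallothionein Mt2A at 0.31 per step, Sgk1 being lost without any 1 of 10 arrays (-0.29 to -0.25). The list mean relative to vehicle ran from -0.34 to -0.24 at 489.2 mg/kg and from -0.17 to -0.09 at 978.5 mg/kg, against -0.23 to 0.48 in vehicle arrays. Each of these genes has other regulators as well, and hormone levels were not measured in the data used here.

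**Figure D4:**
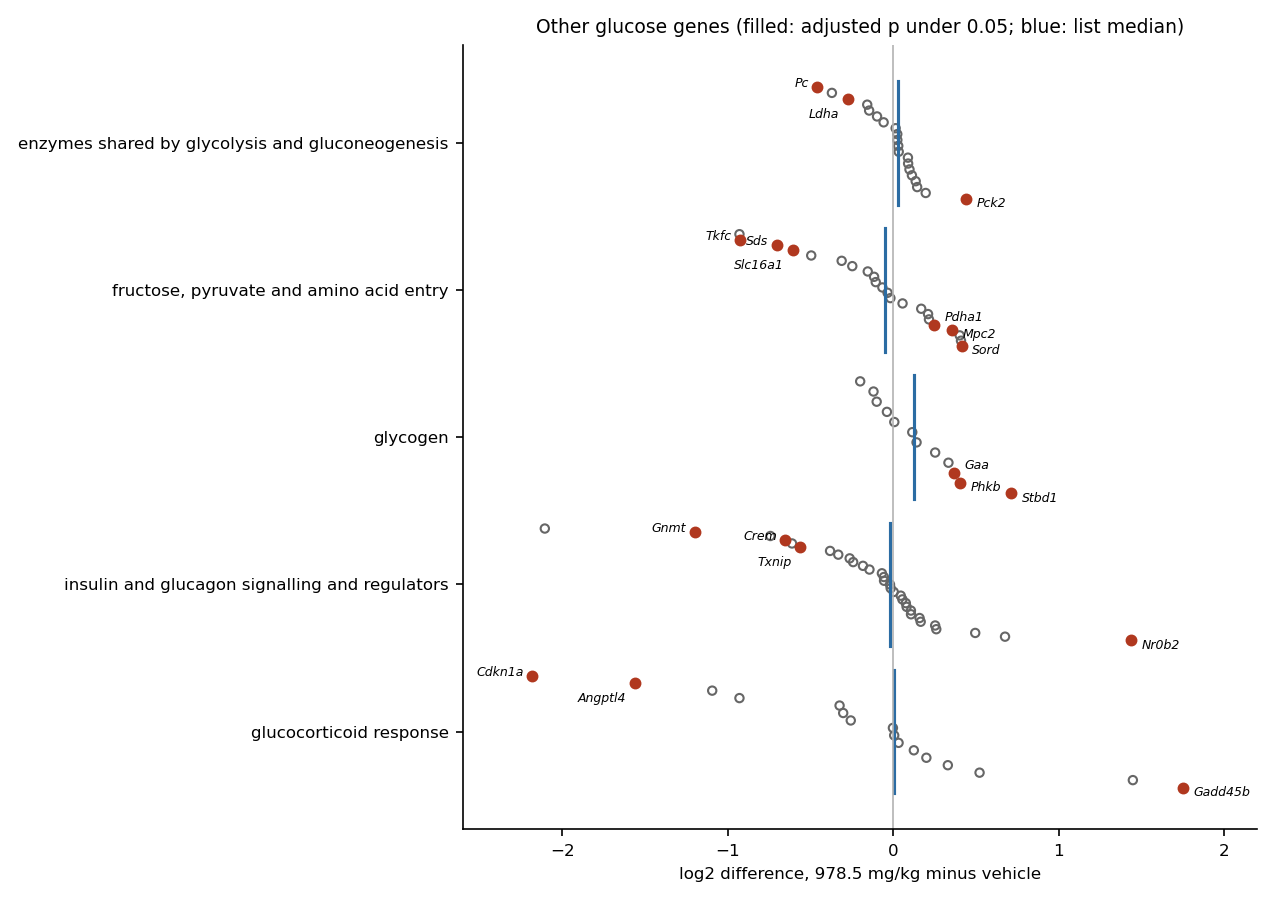
Log2 difference of 978.5 mg/kg from vehicle (x axis) for the measured genes of 5 lists (rows), with called genes filled and named and list medians as blue bars. The medians lie between -0.05 and 0.13, and called genes fall on both sides of zero in 4 of the 5 lists, the exception being glycogen, with 3 higher.

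Gluconeogenic genes are known to be stronger around the portal vein and glycolytic genes around the central vein, so markers of both zones were read. Of 12 periportal genes 1 was called higher and 3 lower at 978.5 mg/kg, where 10.2% of all genes were called. The list median was -0.19. Arginase Arg1 rose by 0.28 (adjusted p = 0.00881), while histidine ammonia-lyase Hal (-0.63, adjusted p = 0.00684), Asl (-0.38, adjusted p = 0.00561) and Sds, which also stands in the amino acid list, were lower. As the mean of its probe sets Asl was not called (-0.30, adjusted p = 0.0527). Of 8 measured pericentral genes none was higher and 2 were lower, the ornithine aminotransferase Oat (-1.39, adjusted p = 0.000847) and the cytochrome Cyp1a2 (-0.48, adjusted p = 0.0250), with a median of -0.17. Cyp1a2 was lost without replicate 2 (-0.43, adjusted p = 0.0914) or 3 (-0.47, 0.0962) of that dose. The counts at 489.2 mg/kg were 1 higher and 2 lower for periportal genes and 0 higher and 3 lower for pericentral genes, the third being the vitamin C synthesis enzyme Gulo (-0.86). Of all genes 1.51% were called higher and 1.39% lower at 489.2 mg/kg. There Cyp1a2 was lost without replicate 1 (-0.42, adjusted p = 0.207), Arg1 without replicate 1 (0.28) or 3 (0.26), Hal without replicate 1 (-0.53) or 2 (-0.45) or vehicle replicate 2 or 4 (-0.55 in both), and Asl without any 1 of 7 arrays (-0.34 to -0.30). Oat (-1.42) and glutamine synthetase Glul (-0.53) were the pericentral genes called at 244.6 mg/kg, where 2.95% of all genes were called. Glul was not called as the mean of its probe sets (-0.29, adjusted p = 0.258). In the trend 1 periportal gene was higher and 4 were lower, including the urea cycle enzyme Cps1 (-0.03 per step), lost without replicate 1 of 978.5 mg/kg. In the same trend 3 pericentral genes were lower, and 6.06% of all genes were called higher and 5.12% lower.

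Clock genes are given because several members are known to follow the time of day and feeding. Of 16 measured, 6 were called higher and 3 lower at 489.2 mg/kg (2.9% of all genes called), and 6 higher and 4 lower at 978.5 mg/kg (10.2%). There the output factor Dbp rose by 2.87 (SE 0.45, adjusted p = 0.000478) and Per3 by 1.54 (SE 0.20, adjusted p = 5.2e-05), while Npas2 changed by -1.75 (SE 0.17, adjusted p = 2.5e-06) and Nfil3 by -1.28 (SE 0.16, adjusted p = 3.2e-05). The clock repressors Nr1d1 (1.82) and Nr1d2 (1.44) rose as well, and these 6 genes kept their calls at this dose in all alternatives run. The list mean relative to vehicle was -0.10 to 0.13 in vehicle arrays and 0.23 to 0.36 at 978.5 mg/kg. The hour of sampling is not given in the sources used here, and the part of these genes in the values of the members was not tested. At 489.2 mg/kg the list means, over genes that went both ways, were 0.20, 0.34 and 0.34 in replicates 1, 2 and 3.

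For each member the 3 genes most like it over the 21 arrays were found by Pearson r among all genes. Gckr was most like Nrep (r = 0.91, and 0.87 within groups), Ankh (0.89) and Ahsg (0.85). Nrep was 11.35 to 12.62 in vehicle arrays, 9.56, 11.39 and 10.05 at 489.2 mg/kg, and 10.44, 10.05 and 10.39 at 978.5 mg/kg, and was called lower at 978.5 mg/kg (-1.75, adjusted p = 0.00104). Because Nrep was picked for its likeness to Gckr over these same arrays, its values at 489.2 mg/kg are no separate evidence of the split by rat. Pklr was most like Tkfc (r = 0.90, and 0.92 within groups), Lcmt1 (0.81) and Hp1bp3 (0.79). Tkfc, picked in the same way, had 10.14, 10.61 and 9.92 at 489.2 mg/kg, with replicate 2 highest.

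Pck1 was most like the collagen gene Col1a2 (r = 0.79), Fxyd6 (0.78) and Pxdn (0.77). Col1a2, a product of stellate cells and fibroblasts, was 7.73 to 8.38 in vehicle arrays and 6.10, 8.11 and 7.21 at 489.2 mg/kg, so that its lowest arrays at that dose were those of Pck1. Slc2a2 was most like Man1a1 (0.77), Cyp4f1 (0.76) and Fabp1 (0.76), and Tat was most like Pip4p1 (0.85), Sphk2 (0.81) and Tfe3 (0.80). Ppargc1a was most like Nagk (0.76), Nefh (0.71) and Mrpl57 (0.70), and Fbp1 was most like Prickle1 (0.77), Agxt (0.70) and Il2ra (0.68). Each is picked as highest among all genes and is a description only.

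**Figure D5:**
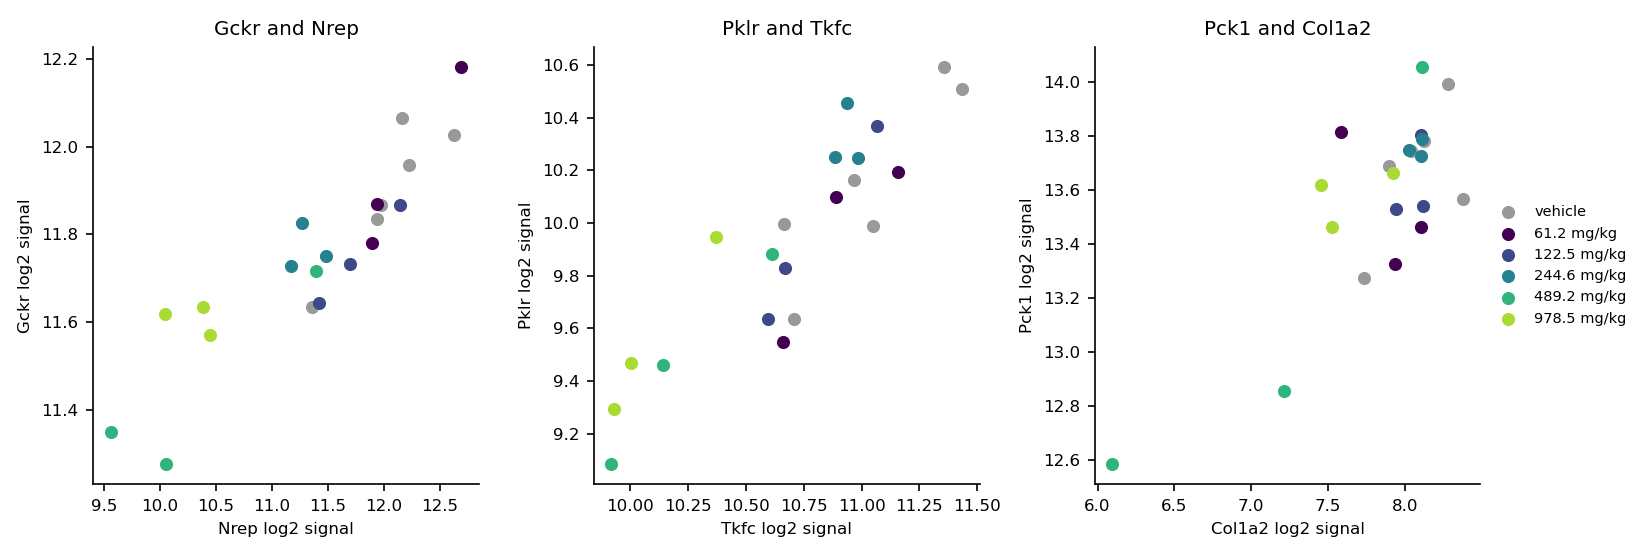
Log2 signal of Gckr, Pklr and Pck1 (y axes) against that of the gene most like each, Nrep, Tkfc and Col1a2 (x axes), with 1 point per array coloured by dose. The arrays at 489.2 mg/kg hold the lowest point of each panel on the y axis, and in the Pck1 panel 2 of them lie apart at the lower left.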

How the data were processed

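Liver RNA was measured on 21 rat expression arrays, each taken here as 1 rat. The labels number the arrays within a group and do not say that each comes from a separate rat. With 5 vehicle rats in the protocol and 6 vehicle arrays, this could not be checked. The deposited values are log2 signals, made by the authors with robust multi-array averaging (RMA), per the submitters' processing notes; no version is given in these notes. They were used with no further scaling. The platform annotation pairs 20832 of 31099 probe sets with 1 gene, 436 with more than 1 and 9831 with no gene, and the first kind was used.

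Each gene's probe set with the highest mean entered limma 3.58.1 (R 4.3.3), fitting the 6 group means jointly (21 arrays, 15 residual degrees of freedom), with Benjamini-Hochberg adjustment over 14218 genes and a threshold of 0.05. Comparisons in this fit were each dose against vehicle and 978.5 against 489.2 mg/kg. The trend came from a separate fit with dose rank in place of the group means, adjusted in the same way. Its total degrees of freedom after variance moderation were 23.2, against 19.5 in the fit of group means. The steps were tested on simulated data. Tables, promoter searches and plots used Python 3.11.15, pandas 2.3.3, numpy 2.4.6 and matplotlib 3.10.9.

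The members, the gene lists and the markers were chosen with earlier results of these data known. Named are all 7 members, at most 6 genes of a list called at 978.5 mg/kg or in the trend by smallest p, Pc, Foxo1, Gcgr and Cebpb, and the 3 genes most like each member. Gk, Gbe1, Crtc2, Glul, Got1, Pdha1 and the markers with values were named after their values were seen. One gene of the naming rule is not reported here. Alternatives covered probe set choice, dim genes, variance moderation, array weights, scaling, a floor, the arrays fitted, the form of the trend, leaving out arrays singly and a block on replicate number. Labels number the arrays of each group, and p-values measure the spread between these arrays.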

Additional observations from a re-analysis of the deposited data

How the results depend on the processing

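Of 664 alternative values of 31 member results, 634 kept their direction and side of the threshold, 4 lost a call, 12 gained one and 14 changed sign, none of these called before or after. For the other genes named, 1362 of 1573 did, 205 lost a call, 3 gained one and 3 changed sign, and at 978.5 mg/kg 18 of 36 called genes kept their call in every alternative. Median centring moved none of 42 member levels by more than their SD, and averaging probe sets moved 11 of 42. Averaging can move only the levels of Pklr and Ppargc1a, since each other member has 1 probe set. The other probe sets of these genes have lower signals than the main ones. The number of arrays limits every value, and the cause of the shifts below was not tested.

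Gains at 978.5 mg/kg were Gckr with array weights (adjusted p = 0.0436), with a second quantile normalization (0.0492) and without vehicle replicate 6 (0.0335), and Pklr without vehicle replicate 2 (0.0498). Pck1 gained a call between the highest doses without replicate 2 of 489.2 mg/kg (0.86, adjusted p = 0.0328). Slc2a2 at 978.5 mg/kg changed sign with median centring (0.0036) and ran from -0.065 to 0.049 with 1 array left out (above zero without vehicle replicate 3 or 6 or replicate 2 of that dose). Tat at that dose ran from -0.038 (without its replicate 1) to 0.57. Fbp1 ran from -0.11 to 0.013 at 489.2 mg/kg and from -0.017 to 0.0023 per step in the trend (above zero without vehicle replicate 5), and was 0.0057 in the trend of treated arrays. At 978.5 mg/kg Foxo1 was 0.044 as the mean of its probe sets, and Cebpb ran from -0.042 to 0.32 (below zero without vehicle replicate 4 or replicate 1 of that dose). At 489.2 mg/kg 8 of 23 called genes kept their call in every alternative (Stbd1, Crem, Angptl4, Cdkn1a, Oat, Dbp, Per3 and Npas2), and at 244.6 mg/kg 2 of 6 did (Gnmt and Oat). Of the other genes, 8 were followed in the trend, Trib3 among them, and none kept its trend call in every alternative.

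With the replicate number as a block, Tat was -0.0080 at 61.2 mg/kg and -0.075 at 978.5 mg/kg (and, with no change of sign, 0.19 at 122.5, 0.12 at 244.6 and 0.48 at 489.2 mg/kg and 0.029 per step in the trend), Fbp1 was 0.053 at 489.2, 0.014 at 978.5 mg/kg and 0.0086 in the trend, and Pck1 was 3.3e-05 at 978.5 mg/kg. The trend of Ppargc1a was called (0.10, adjusted p = 0.0166), making 2 members. Same-numbered arrays of different groups deviated together at a median r of 0.06 (17 of 45 pairs over 0.1), against -0.02 for other pairs (28 of 135 over 0.1). Same-numbered pairs were thus over 0.1 more often than other pairs. The labels do not say what the numbers stand for, and the main fit held no block. What the same-numbered arrays share was not tested.

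Counts of all genes called moved as follows. At 61.2 mg/kg 1 gene replaced 2 under trend and robust moderation, second quantile normalization, the floor, only the arrays compared and the block. At 122.5 mg/kg 16 became 357 with array weights, 8 with only the arrays compared and 4 with the block. At 244.6 mg/kg 420 became 250 in genes above the median level and 766 with array weights. With only the arrays compared, 412 became 160 at 489.2 mg/kg (0 members) and 1457 became 961 at 978.5 mg/kg. At 978.5 mg/kg 1 member was called with array weights and with second quantile normalization. Between the highest doses 15 became 42 with probe sets averaged, 26 above the median level, 27 with trend and robust moderation, 6 with array weights, 27 with median centring, 3 with second quantile normalization and 0 with only the arrays compared. In the trend 1589 became 441 in treated arrays alone, and an F test called 799 genes and 0 members. Leaving out 1 array gave 0 to 2 genes at 61.2, 4 to 17 at 122.5, 112 to 437 at 244.6, 157 to 514 at 489.2 and 702 to 1594 at 978.5 mg/kg, 2 to 126 between the highest doses and 1088 to 1730 in the trend. It gave 0 to 4 members at 489.2 mg/kg, 0 to 1 at 978.5 mg/kg and between the highest doses, and 1 to 2 in the trend.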
